A study of Bos taurus with 9 samples.

Results

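The genes described here are 9 members of the poly(ADP-ribose) polymerase (PARP) family and 1 partner gene, DTX3L, measured by RNA-seq in bovine endometrial cells (BEND). They were chosen by name, with earlier results of these data known: PARP1, PARP2, PARP3, PARP9, PARP10, PARP12, PARP14, TIPARP, ZC3HAV1 and DTX3L. They are 10 of the 17162 genes in the deposited table. All 10 were above the minimum expression level and entered the tests, together with the rest of the 12578 tested genes. Cells of wild-type genotype were compared in 3 groups of 3 libraries. CON cells received no hormone or interferon, and GA cells received estradiol (E2, 1 nM) and progesterone (P4, 100 nM). GB cells received the same E2 and P4 for 12 h and then interferon tau (IFNT, 100 ng/mL) for an additional 12 h. All cells were primary cells from uteri of Holstein cows collected at an abattoir, and all were grown in medium with fetal bovine serum. Whether the 3 replicates of a group came from separate cows is not given in the sources used here, so the spread between libraries, and each p-value based on it, may be technical. The hours at which CON and GA cells were harvested are not given either. Any difference in culture time, or between GB and GA in time since E2 and P4, cannot be told apart from IFNT.

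The values are FPKM (fragments per kilobase of transcript scaled to the mapped fragments of the library), which are corrected for transcript length, so levels can be set side by side between genes. FPKM summed to between 1395622.1 and 1442723.0 per library. Read counts were not used here, and the depth of each library was judged only from the smallest steps between low FPKM values, which gave relative depths of 0.898 to 1.06. The labels call the cells epithelial, and the study reported positive cytokeratin staining of its primary cells by immunofluorescence, which detects protein. In the RNA, all 7 epithelial marker genes found in the table (KRT7, KRT8, KRT18, KRT19, CDH1, CLDN4 and ESRP1) were under 1 FPKM in all 9 libraries, with a highest single value of 0.70. The 8 stromal fibroblast markers had summed FPKM from 16640 up to 17220 in CON, from 16820 up to 17210 in GA and, lower, from 15040 up to 15150 in GB, led by VIM. Of these 8, VIM, COL1A1, COL1A2 and COL3A1 were lower in all GB libraries than in all CON and GA libraries, whereas DCN and LUM were higher than in CON but lower than in GA. PDGFRB was lower than in CON but higher than in GA, and THY1 was lower than in CON and overlapped GA. Of 6 immune markers, 4 were under 1 FPKM in every library, and the immune sums ranged from 20.5 to 28.2 FPKM, mostly CD14. Of 4 endothelial markers, 3 were under 1 FPKM in every library, with sums of 1.33 to 3.34 FPKM. Since the markers did not move in 1 direction, the sum reflects VIM above all, and its part in the results below was not tested. In bulk RNA, a gene that fell in every cell and a loss of the cells that express it cannot be told apart.

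PARP enzymes take NAD+ and attach its ADP-ribose part to proteins or nucleic acids. PARP1, PARP2 and PARP3 act at DNA breaks, where PARP1 and PARP2 build long ADP-ribose chains, whereas PARP10, PARP12, PARP14 and TIPARP attach single units. PARP9 works in a complex with the ubiquitin ligase DTX3L, and ZC3HAV1 (zinc finger antiviral protein) has lost the enzymatic activity and binds viral RNA. Type I interferons raise several of these genes in many cell types. IFNT is the type I interferon by which the ruminant conceptus signals pregnancy to the endometrium.

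In GB vs. CON, 5 of the 10 genes rose by more than 1 on the log2 scale with an adjusted p under 0.05, and none fell by that much. These were PARP9, PARP14, DTX3L, PARP10 and PARP12. The background was 2.94%, the share of all 12578 tested genes that rose by the same rule, and 4.01% changed in either direction. Since the 10 genes were chosen with earlier results of these data known, their contrast with the background is a description only. In GB vs. GA, the same 5 genes rose, against a background of 2.66% for increases and 3.64% for either direction. With the adjusted p alone, 6 genes rose and 1 fell in each GB comparison, against 16.2% higher and 17.3% lower among all tested genes for the comparison with CON, and 9.87% higher and 19.2% lower for that with GA. The median log2FC of the 10 genes was 2.14 against CON and 2.23 against GA, beside medians of -0.02 and -0.08 over all tested genes. Tests were made with limma on log2(FPKM + 0.5), with Benjamini-Hochberg adjustment over all tested genes, and log2FC below is on that scale. Both GB comparisons use the same GB libraries, so their results are not independent of each other.

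**Figure D1:**
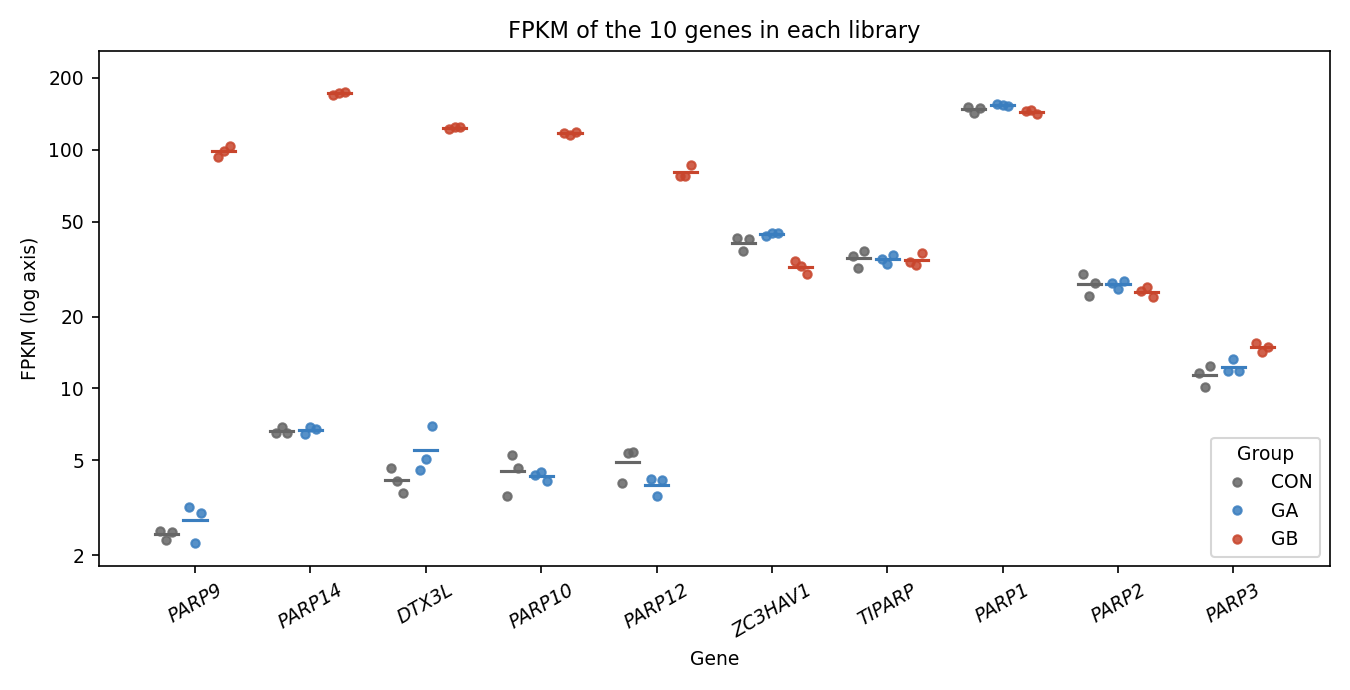
FPKM (log axis) of the 10 genes in each of the 9 libraries; points are libraries and short lines are group means (n = 3 for CON, GA and GB). PARP9, PARP14, DTX3L, PARP10 and PARP12 lie under 7 FPKM in CON and GA and between 77.4 and 174.9 FPKM in GB, whereas the other 5 genes lie between 10.18 and 155.72 FPKM in all 3 groups.

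PARP9 had the lowest level of the 10 genes in untreated cells and the largest log2FC of them in both GB comparisons. Its FPKM was 2.53, 2.32 and 2.49 in CON, 3.18, 2.24 and 3.0 in GA, and 93.2, 98.4 and 103.74 in GB. The GB libraries stood far above all 6 others, and CON and GA overlapped. PARP9 carries macrodomains, folds that bind ADP-ribose. The CON mean of 2.45 ± 0.112 (SD, n = 3) was exceeded 40.2-fold by the GB mean of 98.5 ± 5.27, with a log2FC of 5.07 (SE 0.11, limma with Benjamini-Hochberg adjusted p = 1.1e-09). Against the GA mean of 2.81 ± 0.499, the ratio was 35.1 and the log2FC was 4.91 (adjusted p = 1.3e-09). The log2FC of PARP9 ranked 45 among the 12578 tested genes in the comparison with CON and 46 in that with GA. In the order of expression levels, PARP9 moved from percentile 13.4 of the tested genes in CON to percentile 82.7 in GB.

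DTX3L is the E3 ubiquitin ligase that binds PARP9. DTX3L was at 4.66, 4.10 and 3.64 FPKM in CON, at 4.53, 5.08 and 6.98 in GA and at 121.71, 124.19 and 125.01 in GB. All GB libraries were above all others, the GB values lay close together, and one GA library, replicate 3, was above the other GA and CON libraries. From a CON mean of 4.13 ± 0.511 the level rose to 123.6 ± 1.72 FPKM in GB, which is 29.9-fold (log2FC 4.75, SE 0.14, limma adjusted p = 8.2e-09). Compared with GA (5.53 ± 1.29), the rise was 22.4-fold (log2FC 4.38, adjusted p = 1.5e-08).

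PARP14, which has macrodomains and also transfers single ADP-ribose units, reached the highest level of the 10 genes in GB. Its libraries held 6.48, 6.88 and 6.52 FPKM in CON, 6.47, 6.91 and 6.77 in GA, and 169.67, 172.74 and 174.9 in GB. CON and GA overlapped fully and GB was separate from both. The GB mean of 172.4 ± 2.63 was 26.0 times that of CON (6.63 ± 0.22) and 25.7 times that of GA (6.72 ± 0.225). The log2FC was 4.6 (SE 0.053, limma adjusted p = 5.0e-11) against CON and 4.58 (adjusted p = 5.2e-11) against GA. In GB, 1334 tested genes had a higher mean level than PARP14, which stood at percentile 89.4, compared with 25.4 in CON.

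Since PARP9 and DTX3L proteins form a complex, the ratio of their transcript levels was taken in each library. PARP9 FPKM divided by DTX3L FPKM was 0.543, 0.566 and 0.684 in CON, 0.702, 0.441 and 0.430 in GA, and 0.766, 0.792 and 0.830 in GB. DTX3L was thus above PARP9 in all 9 libraries, and the 3 GB ratios were above all CON and GA ratios. The mean log2 ratio was higher in GB by 0.42 relative to CON and by 0.64 relative to GA. In a two-sided exact permutation test, p was 0.1 in both comparisons, the smallest value that 3 against 3 libraries allow, and p = 0.5 in GA vs. CON, where the difference was -0.22. When 1 library was left out, the difference ranged from 0.35 to 0.52 relative to CON, from 0.52 to 0.87 relative to GA, and from -0.45 (without GA replicate 1) to -0.10 (without GA replicate 3) in GA vs. CON. The number of reads behind the low CON and GA values is not known here.

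In the RefSeq annotation of assembly ARS-UCD2.0, which is a later build than that used for the files and served only for names and neighbours, PARP9, DTX3L and PARP14 follow each other directly on 1 chromosome. PARP9 and DTX3L overlap there, and PARP14 overlaps HSPBAP1. The library kit kept strand, but whether the counting used it is not given in the sources used here, so reads from overlapping parts may be shared between these genes. The genes on either side did not pass the test in either GB comparison. HSPBAP1, next to PARP14, had 1.85, 1.9 and 2.35 FPKM in CON, 2.66, 2.98 and 1.81 in GA, and 1.8, 1.51 and 1.4 in GB. Its log2FC was -0.29 (limma adjusted p = 0.247) against CON and -0.51 (adjusted p = 0.062) against GA. The other tested neighbours, WDR5B (log2FC 0.12), KPNA1 (-0.10) and SLC49A4 (listed as DIRC2; 0.12), had adjusted p-values of 0.164 to 0.485 in GB vs. CON. SEMA5B was below the minimum level with means of 0.123 to 0.187 FPKM, and the snRNA annotated between KPNA1 and PARP9 is not analysed here.

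**Figure D2:**
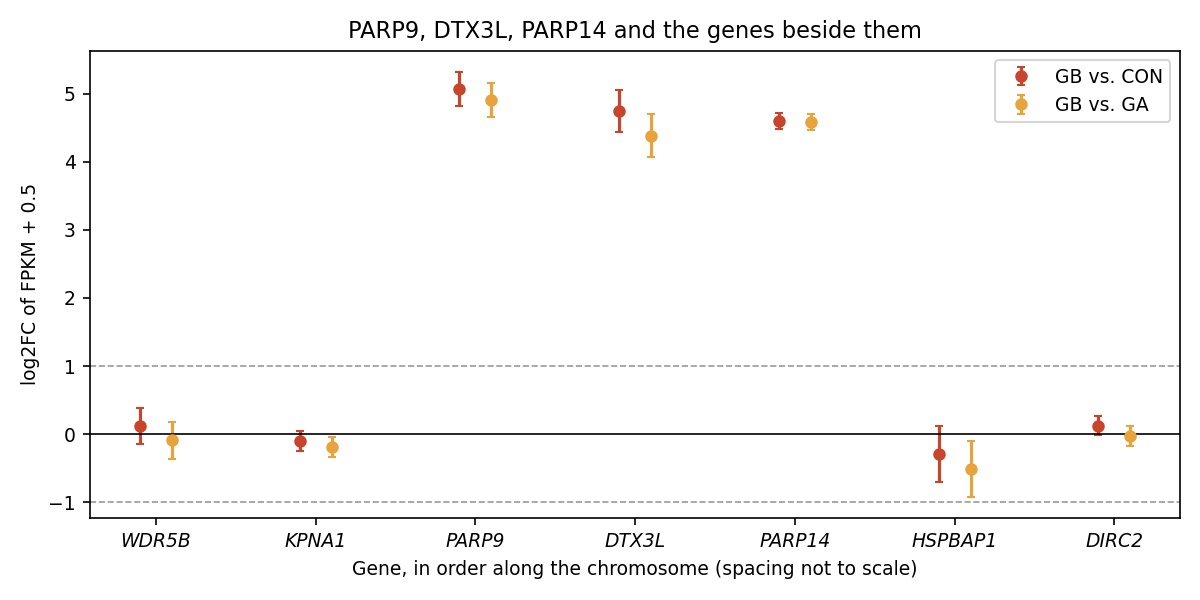
log2FC (FPKM + 0.5) of PARP9, DTX3L, PARP14 and the tested genes beside them, in chromosomal order with spacing not to scale; points are estimates, bars are 95% intervals and dashed lines mark a log2FC of 1 in either direction. The 3 genes sit between 4.38 and 5.07, whereas the 4 genes beside them lie between -0.51 and 0.12.

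PARP10 attaches single ADP-ribose units and is known as a binding partner of MYC. PARP10 was measured at 3.53, 5.28 and 4.65 FPKM in CON, 4.34, 4.47 and 4.09 in GA, and 117.82, 114.96 and 118.85 in GB. The GA range lay inside the CON range and GB was separate. The mean rose from 4.49 ± 0.886 in CON and 4.30 ± 0.193 in GA to 117.2 ± 2.02 in GB, by 26.1-fold and 27.3-fold. The log2FC was 4.58 (SE 0.12, limma adjusted p = 2.9e-09) against CON and 4.62 (adjusted p = 2.8e-09) against GA.

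PARP12 belongs with ZC3HAV1 and TIPARP to the PARPs with CCCH zinc fingers, which bind RNA. The PARP12 values were 4.02, 5.36 and 5.39 FPKM in CON, 4.16, 3.55 and 4.13 in GA, and 77.44, 77.98 and 86.18 in GB. CON and GA overlapped, and GB was separate from both. With a GB mean of 80.5 ± 4.90 FPKM, the increase was 16.4-fold over CON (4.92 ± 0.783) and 20.4-fold over GA (3.95 ± 0.344). PARP12 had the smallest log2FC of the 5 genes in both GB comparisons, 3.91 (SE 0.11, limma adjusted p = 7.9e-09) against CON and 4.19 (adjusted p = 4.8e-09) against GA.

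ZC3HAV1 did not rise with the other CCCH zinc finger gene PARP12 but fell slightly. ZC3HAV1 was at 42.81, 37.50 and 42.15 FPKM in CON, 43.35, 44.86 and 44.90 in GA, and 34.31, 32.53 and 30.29 in GB. All GB libraries were below all CON and GA libraries, and all GA libraries were above all CON libraries. The GB mean of 32.4 ± 2.01 FPKM was lower than that of CON (40.8 ± 2.89) by 20.7% and lower than that of GA (44.4 ± 0.884) by 27.0%. The log2FC was -0.33 (SE 0.067, 95% interval -0.48 to -0.18, limma adjusted p = 0.0048) against CON and -0.45 (SE 0.067, adjusted p = 0.00101) against GA, below the fold threshold in both. With read GC content (the share of G and C bases among the reads of a library) as a covariate, the adjusted p in GB vs. CON was 0.0631 (log2FC -0.43). The decrease in GB vs. GA passed in all 21 alternative settings, with adjusted p-values of 0.000496 to 0.00579.

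TIPARP, a target gene of the aryl hydrocarbon receptor that attaches single ADP-ribose units, had 36.03, 31.87 and 37.81 FPKM in CON, 34.83, 33.28 and 36.29 in GA, and 33.74, 32.99 and 36.95 in GB. The 3 groups overlapped. The log2FC was -0.03 (95% interval -0.19 to 0.14, limma adjusted p = 0.825) against CON and -0.01 (-0.18 to 0.16, adjusted p = 0.933) against GA. Both intervals lie well inside the threshold of 1, although a small change is not excluded.

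Among the DNA damage PARPs, PARP1, the main sensor of DNA breaks, was the most abundant of the 10 genes in CON and GA. PARP1 gave 150.53, 143.09 and 150.09 FPKM in CON, 155.72, 154.08 and 153.18 in GA, and 145.25, 146.75 and 141.3 in GB. GB overlapped CON but lay below all GA libraries. The log2FC was -0.03 (95% interval -0.12 to 0.05, limma adjusted p = 0.528) in GB vs. CON. Relative to GA it was -0.10 (95% interval -0.18 to -0.01), which did not pass (unadjusted p = 0.0327, limma adjusted p = 0.0908). It passed in only 1 of 21 alternative settings, without CON replicate 2, which enters the shared estimate of the spread (adjusted p = 0.0471). With median-of-ratios scaling the log2FC was -0.02 and the adjusted p was 0.725, the highest of these settings.

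PARP2 shares the role of PARP1 in DNA repair at a lower level. Its FPKM was 30.1, 24.45 and 27.54 in CON, 27.73, 26.1 and 28.14 in GA, and 25.52, 26.65 and 24.19 in GB, with overlap among the groups. The log2FC was -0.10 in both GB comparisons (95% intervals -0.28 to 0.08, limma adjusted p = 0.371 and 0.38).

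PARP3, which acts in the joining of DNA double-strand breaks, had a small rise. In CON it was at 11.63, 10.18 and 12.38 FPKM, in GA at 11.84, 13.26 and 11.78, and in GB at 15.55, 14.22 and 14.88. All GB libraries were above all CON and GA libraries. The GB mean of 14.9 ± 0.665 was higher than the CON mean of 11.4 ± 1.12 by 30.6% and than the GA mean of 12.3 ± 0.838 by 21.1%. The log2FC was 0.37 (SE 0.086, limma adjusted p = 0.00936) and 0.27 (SE 0.086, adjusted p = 0.0449), below the fold threshold in both. The GB vs. CON difference had an adjusted p of 0.429 with read GC content as a covariate (log2FC 0.23). The GB vs. GA difference passed in 12 of 21 alternative settings, and it was lost without CON replicate 1, GA replicate 1, GA replicate 3 or any one of the GB replicates (adjusted p 0.0593 to 0.13). PARP3 overlaps RRP9 in the reference annotation, and RRP9 was at or below 0.22 FPKM in every library.

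**Figure D3:**
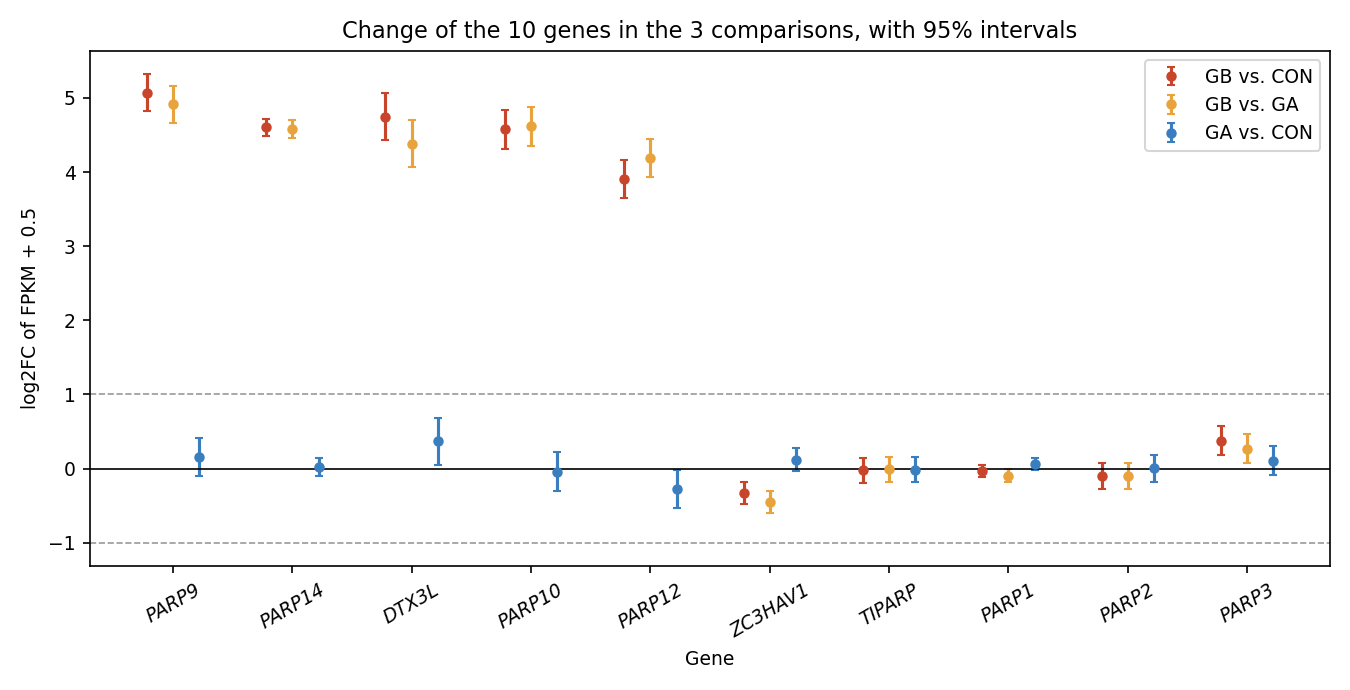
log2FC (FPKM + 0.5) of the 10 genes in GB vs. CON, GB vs. GA and GA vs. CON; points are estimates, bars are 95% intervals and dashed lines mark a log2FC of 1 in either direction. PARP9, PARP14, DTX3L, PARP10 and PARP12 lie between 3.91 and 5.07 in the GB comparisons, and all other points lie between -0.45 and 0.37.

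E2 and P4 alone were examined by GA vs. CON. None of the 10 genes was called, and none passed the adjusted p alone, with limma and Benjamini-Hochberg adjustment. In this comparison 0.0716% of all tested genes were called and 0.453% passed the adjusted p. Before adjustment, 2 of the 10 genes were under 0.05 by limma (background 19.3%). These were DTX3L (log2FC 0.37, 95% interval 0.05 to 0.68, limma adjusted p = 0.207) and PARP12 (log2FC -0.28, 95% interval -0.54 to -0.02, limma adjusted p = 0.228). The log2FC of the other 8 genes ran from -0.04 for PARP10 to 0.16 for PARP9. The median of the 10 was 0.04, beside 0.06 over all tested genes. The groups did not overlap for 2 genes, PARP1 and ZC3HAV1, both higher in GA, against a background of 24.7%. The PARP1 log2FC of 0.06 was close to the median over all tested genes, which was 0.003 with median-of-ratios scaling. In GB vs. CON, the groups did not overlap for 7 of the 10 genes (background 46.1%), and in GB vs. GA for 8 of 10 (background 46.8%).

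The level order within the set differed between GB and the other groups. In CON, mean FPKM fell from PARP1 through ZC3HAV1, TIPARP, PARP2, PARP3, PARP14, PARP12, PARP10 and DTX3L to PARP9. Of the neighbours in this order, the ranges of ZC3HAV1 and TIPARP overlapped, as did those of PARP12 and PARP10 and of PARP10 and DTX3L. In GA the order was the same down to PARP14, followed by DTX3L, PARP10, PARP12 and PARP9, with overlaps between PARP14 and DTX3L and between PARP10 and PARP12. In GB, PARP14 came first, then PARP1, DTX3L, PARP10, PARP9, PARP12, TIPARP, ZC3HAV1, PARP2 and PARP3, and TIPARP and ZC3HAV1 were the only neighbours whose ranges overlapped.

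The summed FPKM of the 10 genes was 292.32, 271.03 and 292.66 in CON, 296.15, 293.83 and 299.26 in GA, and 834.21, 841.41 and 856.29 in GB. The 5 genes that rose made up 7.95% ± 0.805 (SD, n = 3) of this sum in CON, 7.86% ± 0.423 in GA and 70.2% ± 0.818 in GB. Their own sum went from 22.6 ± 1.36 FPKM in CON and 23.3 ± 1.46 in GA to 592.3 ± 14.8 in GB. The other 5 genes summed to 262.7 ± 13.6 in CON, 273.1 ± 1.39 in GA and 251.7 ± 3.60 in GB. PARP1 was 51.9% of the sum in CON and 17.1% in GB, although its own level differed little, and PARP14 was 2.33% in CON and 20.4% in GB. These shares describe the genes that the test above already called and are no separate evidence.

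**Figure D4:**
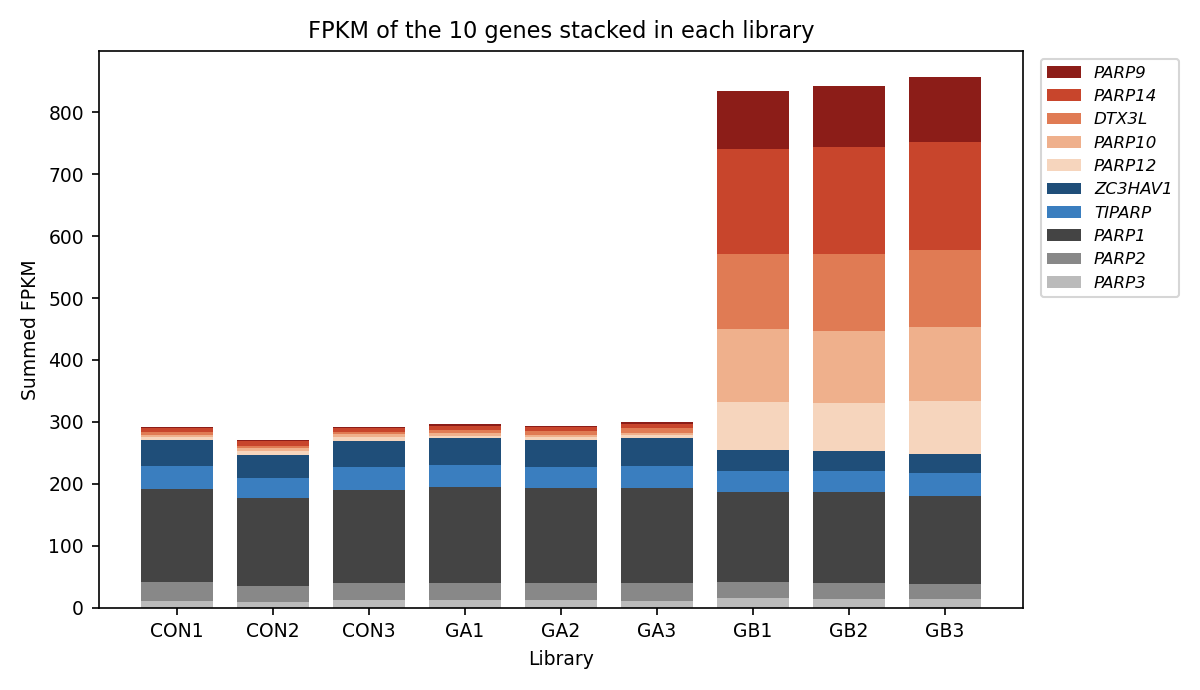
FPKM of the 10 genes stacked in each of the 9 libraries, in the order of the legend. The stacks reach 271.03 to 299.26 FPKM in CON and GA and 834.21 to 856.29 FPKM in GB, where the 5 genes that rose fill 70.2% of the stack on average.

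The genes whose profile was most like that of a member were found by Pearson's r of log2(FPKM + 0.5) over the 9 libraries. For PARP9 these were OAS1Y (r = 0.9998), TMEM106A (r = 0.9995) and C7H19orf66 (r = 0.9994). The mean FPKM of OAS1Y was 4.07 ± 0.492 without treatment and 900.5 ± 11.7 after IFNT. For PARP14 they were LOC509283, IFI44 and MX2 (r = 0.9998 for each), and MX2, an interferon-induced antiviral GTPase, went from 0.0633 ± 0.0231 FPKM without treatment up to 757.1 ± 4.33 after IFNT. For ZC3HAV1 they were DESI2 (r = 0.995), EFR3A (r = 0.990) and MTURN (r = 0.990). DESI2 had 55.4 ± 8.15 FPKM in CON, 67.5 ± 4.34 in GA and 31.9 ± 3.44 in GB. That it shares the order of groups with ZC3HAV1 follows from its selection by r. For PARP1 they were P4HB (r = 0.987), THYN1 (r = 0.984) and ACBD6 (r = 0.979), and for TIPARP RAB32 (r = 0.945), ANKRD40 (r = 0.925) and LOC112446407 (r = 0.912). The 9 points fall into GB and the rest for PARP9 and PARP14, so that r there mainly reflects a shared difference between GB and the other libraries. For every member, the genes named are the highest r picked from many genes over only 9 libraries. How high the best r would be by chance was not tested. The partners of TIPARP, whose groups overlapped, of PARP1 and of ZC3HAV1 are therefore listed without a conclusion about likeness.

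Beyond these genes, 60 tested genes from 6 related lists were examined: other PARP family genes, enzymes and proteins that remove or read ADP-ribose, NAD+ supply and use, other deltex genes, partners of ZC3HAV1 with the RNA exosome, and aryl hydrocarbon receptor genes. In GB vs. CON, 4 of the 60 (6.67%) were called higher, beside 2.94% of all tested genes, and 0 lower. With the adjusted p alone, 8 (13.3%) were higher and 9 (15%) lower, beside 16.2% and 17.3% of all tested genes, so these shares were near the background. The median log2FC was -0.02, and 25 (41.7%) were under 0.05 by limma before adjustment (background 43.8%). In GB vs. GA, 3 (5%) were called higher (background 2.66%) and 0 lower, and the adjusted p alone gave 6 (10%) higher and 10 (16.7%) lower, again near the background of 9.87% and 19.2%. The median was -0.10, and 24 (40%) were under 0.05 before adjustment (background 40%). In GA vs. CON none was called by limma, and 17 (28.3%) were under 0.05 before adjustment (background 19.3%). There 1 gene, EXOSC6 of the RNA exosome, named after its value was seen, passed the adjusted p (log2FC -0.93, limma adjusted p = 0.0392). EXOSC6 passed in 10 of 21 alternative settings, and was lost without any one of the CON or GA replicates or GB replicate 1 (adjusted p 0.0654 to 0.143).

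Of the 8 other PARP family genes, none was called in any of the 3 comparisons (the unadjusted p of limma was under 0.05 for 3 of them in GB vs. CON, for 5 when GB was set against GA, and for 1 in GA vs. CON, beside backgrounds of 43.8%, 40% and 19.3%). PARP8 was at 3.49, 3.48 and 3.03 FPKM in CON, 3.83, 3.18 and 3.49 in GA, and 5.72, 5.03 and 6.15 in GB, with GB above both. Its log2FC was 0.68 (limma adjusted p = 0.00183) against CON and 0.62 (adjusted p = 0.00352) against GA. TNKS (tankyrase), which builds ADP-ribose chains, went from 21.7 ± 0.310 FPKM in CON to 18.2 ± 0.231 in GB (log2FC -0.25, adjusted p = 0.00528) and was also lower than in GA (log2FC -0.32, adjusted p = 0.00165). With read GC content as a covariate, the GB vs. CON estimates were about as large, but the errors were larger and neither gene passed (PARP8 log2FC 0.74, limma adjusted p = 0.0765, and TNKS log2FC -0.25, adjusted p = 0.154). PARP6 was lower in GB vs. GA only by the adjusted p (log2FC -0.27, adjusted p = 0.0208; GB vs. CON -0.02, adjusted p = 0.831). ZC3HAV1L, a gene related to ZC3HAV1, had 14.22, 11.5 and 14.57 FPKM in CON, whereas the GB libraries held 3.96, 6.32 and 12.12. Those groups overlapped, and its log2FC of -0.93 (adjusted p = 0.0499) passed in 6 of 21 alternative settings, with log2FC from -1.62 to -0.58. It was lost without any one of the CON or GA replicates, GB replicate 1 (log2FC -0.58) or GB replicate 2, and without GB replicate 3 it was called (log2FC -1.33). PARP4, PARP11, PARP16 and TNKS2 did not pass in any comparison, with log2FC between -0.23 and 0.16.

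NAMPT, the rate-limiting enzyme of NAD+ salvage, was the 1 called gene among 12 tested genes of NAD+ supply and use. It was called higher in both GB comparisons, beside 2.94% and 2.66% of all tested genes. It had 18.47, 16.26 and 17.85 FPKM in CON, 19.29, 21.01 and 21.5 in GA, and 84.48, 80.74 and 86.13 in GB. GB was separate from both other groups, and GA was above CON. The increase was 4.78-fold in GB vs. CON (log2FC 2.23, limma adjusted p = 8.7e-09) and 4.07-fold in GB vs. GA (log2FC 2.0, adjusted p = 1.9e-08). By the adjusted p alone, 1 gene of the list was lower in GB vs. CON (QPRT, log2FC -0.30, adjusted p = 0.00917, named after its value was seen) and 3 were lower in GB vs. GA (NAPRT, log2FC -0.35, NADSYN1, -0.29, and SARM1, -0.21, also named after their values were seen). Among all tested genes, 17.3% and 19.2% were lower by this rule.

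Among 18 tested partners of ZC3HAV1 and RNA exosome genes, TRIM25, N4BP1 and DCP2 were called higher in GB vs. CON, and TRIM25 and N4BP1 also in GB vs. GA, beside 2.94% and 2.66% of all tested genes. TRIM25, the ubiquitin ligase that ZC3HAV1 needs for its antiviral action, was at 46.46, 50.98 and 47.14 FPKM in CON, 46.28, 44.75 and 50.01 in GA, and 141.54, 129.45 and 139.09 in GB. CON and GA overlapped and GB was separate, with a log2FC of 1.5 (limma adjusted p = 1.0e-07) against CON and 1.53 (adjusted p = 8.5e-08) against GA. N4BP1, an RNA nuclease, rose from 9.15 ± 1.08 FPKM in CON and 9.16 ± 0.989 in GA to 24.4 ± 1.33 in GB (log2FC 1.38 and 1.37). DCP2, the mRNA decapping enzyme, varied more between libraries, with 16.12, 26.08 and 24.4 FPKM in CON, 29.51, 27.82 and 33.67 in GA, and 46.35, 71.91 and 53.27 in GB. DCP2 had a log2FC of 1.35 (adjusted p = 0.000837) against CON and 0.88 (adjusted p = 0.00926) against GA, and with read GC content as a covariate the first of these was 1.48 with an adjusted p of 0.0526. By the adjusted p alone, 5 of the 18 were higher and 2 lower in GB vs. CON, beside 16.2% and 17.3% of all tested genes. In GB vs. GA, 4 were higher and 1 lower, beside 9.87% and 19.2%. The RNA helicase DDX17, named after its values were seen, was lower in both comparisons (log2FC -0.59 and -0.67). The other lower gene in GB vs. CON was EXOSC6 (log2FC -0.50, limma adjusted p = 0.0274), which passed in 14 of 21 alternative settings. EXOSC6 did not pass in GB vs. GA (log2FC 0.43, adjusted p = 0.0552).

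Of the 6 tested aryl hydrocarbon receptor genes, 2 were lower by the adjusted p in GB vs. CON and 4 when GB was set against GA, beside backgrounds of 17.3% and 19.2%, and none was higher. CYP1A1, the classical target of the receptor, was at 27.91, 28.67 and 33.33 FPKM in CON, 26.21, 26.4 and 32.13 in GA, and 13.82, 16.2 and 14.32 in GB. Its log2FC of -0.99 (limma adjusted p = 9.3e-05) in GB vs. CON was just short of the fold threshold. There CYP1A1 passed both thresholds in 7 of 21 alternative settings and the adjusted p in 20 of 21. The log2FC of CYP1A1 was -0.91 (adjusted p = 0.000199) in GB vs. GA. The receptor gene AHR had log2FC of -0.53 and -0.57 (limma adjusted p = 0.012 and 0.00952), and with read GC content as a covariate the first was -0.78 with an adjusted p of 0.0803. TIPARP, a target of the same receptor, did not pass in either comparison, as given above. CYP1B1 and NQO1 did not pass in GB vs. CON (log2FC -0.14 and -0.01, limma adjusted p = 0.193 and 0.928). They were lower in GB vs. GA (log2FC -0.37 and -0.36), and for both, all GA libraries were above all CON libraries. ARNT and AHRR did not pass in either GB comparison. All 6 listed genes were named after their values were seen.

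In the lists of ADP-ribose removal and readers and of other deltex genes, none of the 13 and 3 tested genes was called in any comparison by limma. The unadjusted p of limma was under 0.05 for 5 and 1 of them when GB was set against CON (background 43.8%). It was under 0.05 for 2 and 1 when GB was set against GA (background 40%). By the adjusted p alone, CHD1L was higher (log2FC 0.34) and MACROD1, an enzyme that removes ADP-ribose, was lower (log2FC -0.46, adjusted p = 0.00163) in GB vs. CON, and DTX3 was lower in GB vs. CON (log2FC -0.36), beside 16.2% higher and 17.3% lower among all tested genes. These 3 genes were named after their values were seen. None of the genes of either list passed the adjusted p in GB vs. GA.

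**Figure D5:**
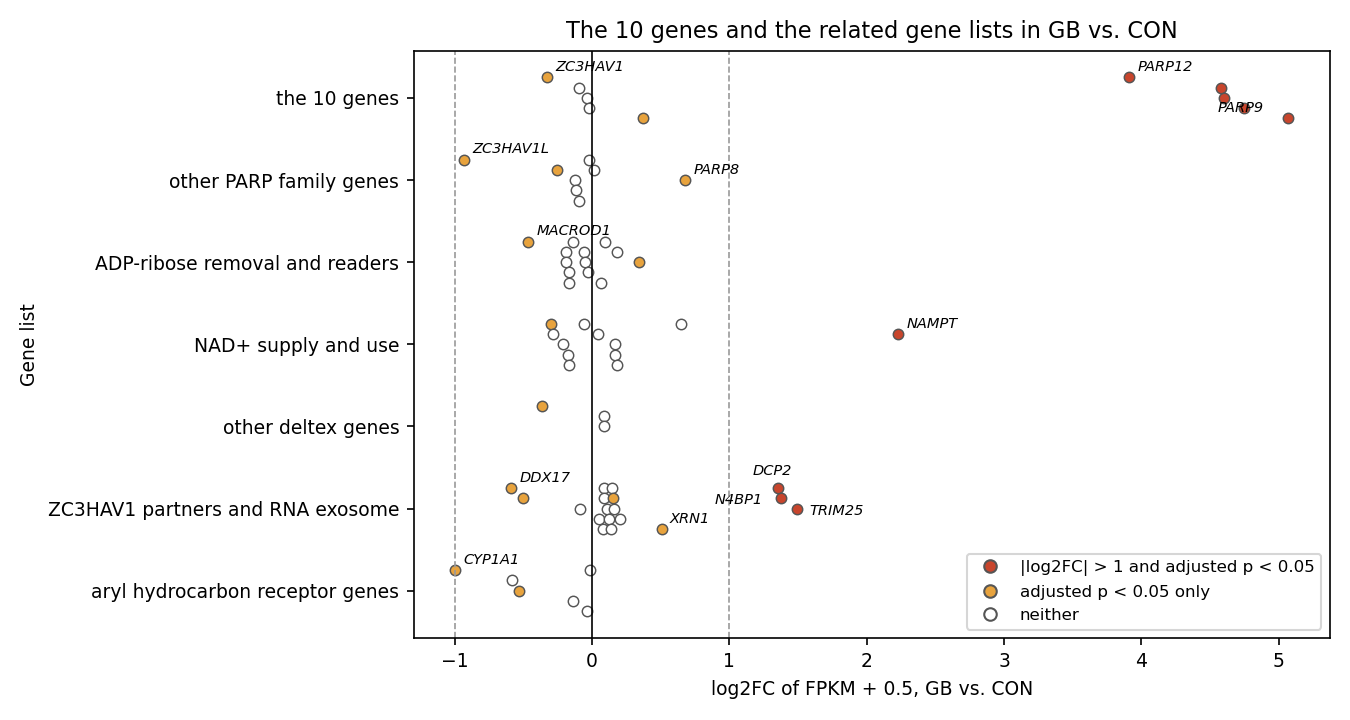
log2FC (FPKM + 0.5) in GB vs. CON of the 10 genes and of the 60 tested genes of 6 related lists; each point is a gene, filled by whether it passed both thresholds, the adjusted p only or neither, and dashed lines mark a log2FC of 1 in either direction. Past a log2FC of 1 lie 5 of the 10 genes and, of the other lists, NAMPT, TRIM25, N4BP1 and DCP2.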

How the data were processed

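RNA was measured in 9 libraries of BEND (CON, GA and GB, 3 each), grouped by their titles. Per the labels, the submitters' processing notes name fastp 0.21.0, Bowtie2 2.33, HISAT2 2.2.1, RSEM 1.3.3 and the genome build ARS-UCD1.2. The authors deposited FPKM per gene, rounded to 2 decimals and not normalized further, with protein descriptions. Here FPKM was transformed to log2(FPKM + 0.5), genes with a mean of at least 0.5 FPKM over the 9 libraries were kept (12578 of 17162), and 3 comparisons were fitted with limma (3.58.1, variance trend) on all 9 libraries. Calls needed |log2FC| above 1 together with a limma p under 0.05 adjusted by Benjamini-Hochberg. Fold changes of low genes are understated on this scale. On simulated data, 197 of 200 changed genes were recovered for GB vs. CON with 0 false calls, and 199 of 200 for GB vs. GA with 1 false call, among 12578 genes. The simulated shifts were all well past the fold threshold, in genes that were not low, with noise independent between libraries. High recovery was therefore built in, and smaller changes were not covered. The PARP9 to DTX3L ratio was tested by an exact permutation test. The 10 genes and the lists were chosen with earlier results of these data known. The named genes were all 10, the other PARP family genes, genes of the lists called in at least 1 comparison, the 3 nearest annotated genes on each side of PARP9, DTX3L and PARP14, and the 3 most correlated genes for 5 members. Other listed genes were named after their values were seen, as the text says. All 10 symbols matched the reference, which was used for names and neighbours only. The deviations of same-numbered libraries correlated weakly or not at all (9 pairs, r -0.03 to 0.08), and the fit held no block. Promoter sequences were not analysed here. In 2 of 21 alternative settings, the read GC content of each library, from the quality summary of the study, entered the fit as a covariate.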

Additional observations from a re-analysis of the deposited data

How the results depend on the processing

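The 21 alternative settings were other pseudocounts (0.1 and 1), no filter or a mean of at least 1 FPKM, TPM, median-of-ratios and quantile scaling, no variance trend, each comparison's own libraries, a replicate block, read GC content as a covariate with and without that block, and leaving out each library. PARP9, PARP14, DTX3L, PARP10 and PARP12 remained called in both GB comparisons in all 21, with log2FC of 3.78 to 5.27 against CON and 4.04 to 5.10 against GA. With the replicate block, 5 members were called in each GB comparison, and it ended 1 call at the adjusted p among the members, PARP3 in GB vs. GA (log2FC 0.27, adjusted p = 0.0767). Of 9 libraries, 6 correlated best with a library of their own number, although no same-numbered pair had an r above 0.08.

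With read GC content as a covariate, the listed genes passing the adjusted p in GB vs. CON went from 17 to 7, and to 3 with the block as well; the cause was not tested. The count of listed genes passing in GA vs. CON, 1 (EXOSC6), became 0 without a filter, without the variance trend and with read GC content, with or without the block, and ranged from 0 to 1 when libraries were left out.

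The sign turned only for genes that did not pass. In GB vs. GA, TIPARP was at 0.017 with TPM and 0.063 with median-of-ratios. In GA vs. CON, PARP2 was at -0.031, -0.057 and -0.064 with TPM, median-of-ratios and quantile scaling, and at -0.19 and -0.32 with GC content without and with the block. PARP14 was at -0.013, -0.0385 and -0.042 under the same 3 scalings. With GC content, PARP3 was at -0.032, PARP9 at -0.020 and PARP10 at 0.28. With GC content and the block, PARP1 was at -0.024, PARP3 at -0.057, PARP10 at 0.49, PARP12 at 0.15 and ZC3HAV1 at -0.052. With libraries left out, TIPARP ranged from -0.095 to 0.026 in GB vs. CON, -0.059 to 0.022 in GB vs. GA and -0.085 to 0.037 in GA vs. CON, and in GA vs. CON PARP2 ranged from -0.075 to 0.072, PARP14 from -0.0012 to 0.044 and PARP10 from -0.19 to 0.075.

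FPKM does not show how many reads lie behind the genes under 7 FPKM in CON and GA, so the precision that depth gives them is not known. With 3 libraries a group, the 95% intervals of TIPARP, PARP1 and PARP2 in the GB comparisons ran from -0.28 to 0.16 at their widest, so smaller changes were not resolved.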
